A study of Mus musculus with 26 samples.

Results

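The 8 libraries described here came from the choroid plexus (ChP) of the 4th ventricle of mice without the suprachiasmatic nuclei (SCN), killed in the subjective day or late in the night. They were chosen by surgery and circadian time (CT) alone, as the SCNx libraries at CT4, CT8, CT28 and CT32 (day, n = 4) and at CT0, CT20, CT24 and CT44 (late night, n = 4), and made up 8 of the 26 samples of the series. The mice were adult male C57Bl6J animals with bilateral electrolytic lesions of the SCN (SCNx), and the 8 sham-operated mice of the same times (Ctrl) had the electrodes inserted without current. Both groups had been kept in constant darkness to check locomotor activity and were then returned to light and darkness of 12 h each (LD12:12) for a week. On the days of sampling the lights stayed off from the time at which they would have come on, which was CT0. Each time point of a group was 1 mouse, so that CT0 and CT24 stood at the end of the projected night, and all spreads below are between single mice killed at different times of a window. SCNx mice were kept in the study only if locomotor activity had no detectable rhythm and no SCN tissue was found by histology. The 2 samples with a local deletion of Bmal1 were not used here. Cycle 1 comprised CT0, CT4, CT8 and CT20, and cycle 2 comprised CT24, CT28, CT32 and CT44, with 2 mice per window in each.

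The circadian clock of mammalian cells is a feedback loop in which CLOCK or NPAS2 pairs with BMAL1, the product of Arntl, and activates the genes of the PER and CRY repressors through E-box elements. REV-ERB and ROR nuclear receptors, encoded by the Nr1d and Ror genes, adjust Arntl in a second loop, and DBP, TEF, HLF and NFIL3 pass the rhythm on through D-boxes. The SCN sets the phase of such clocks in other tissues through nerves, hormones, body temperature and feeding. The ChP is an epithelium on a vascular stroma that makes cerebrospinal fluid and secretes transthyretin, and it holds a clock of its own. The comparison asks which time-of-day difference was left in this tissue when the central pacemaker was missing.

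Library totals ran from 42263334 to 49527614 estimated counts in SCNx and from 38751162 to 47335226 in Ctrl. The table held 55416 genes, of which 13697 reached a mean of 1 CPM (the count scaled by library size to a common total) in both surgery groups and were tested. The defining ChP marker Ttr (transthyretin) ranged from 51990 to 91740 CPM over the 8 SCNx libraries. The 10 epithelial markers summed to 139100 to 161400 CPM in all of them but CT32, which stood at 99770.

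SCNx CT32 and SCNx CT0 stood apart. In CT32 the neuronal markers summed to 680 CPM, against 126 to 155 in the other SCNx libraries, and the astrocyte markers to 880, against 27.8 to 63.7. Gad2, which makes GABA, reached 46.6 CPM there and at most 0.756 elsewhere, and the glial filament gene Gfap reached 171 CPM against at most 6.63. In CT0 the hepatocyte markers summed to 13230 CPM, against 3.43 to 18.8 in the other SCNx libraries, and Fgb (fibrinogen) reached 364.3 CPM against at most 0.283. Markers of blood cells were highest in CT44 at 6615 CPM, against 151.2 to 1103. In Ctrl, CT4 held neuronal and astrocyte markers at 487 and 706 CPM. In the principal components of the 8 SCNx libraries, the first held 46.4% of the variance, with CT32 and CT0 at its opposite ends, and the second held 33.5%. Results that rest on CT32 and CT0 are therefore given with and without them. In a bulk sample, fewer cells of a type and less RNA per cell cannot be told apart.

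**Figure D1:**
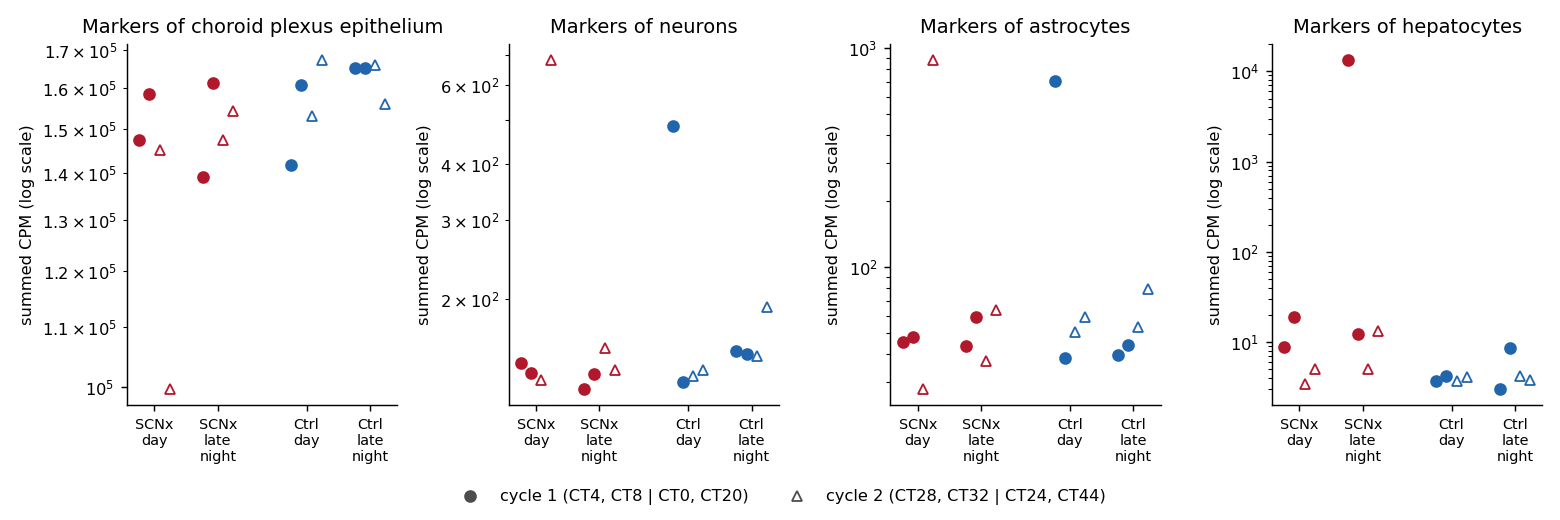
Summed CPM of the markers of choroid plexus epithelium, neurons, astrocytes and hepatocytes in each library, on log axes, for SCNx (red) and Ctrl (blue) in day and late night. Filled circles are cycle 1 and open triangles cycle 2, each point is 1 mouse. SCNx CT32 was high in neuronal (680 CPM) and astrocyte (880 CPM) markers and low in epithelial ones (99770 CPM), Ctrl CT4 was high in both brain lists, and SCNx CT0 held 13230 CPM of hepatocyte markers.

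No gene passed an adjusted p of 0.05 between day and late night in SCNx (0% of 13697), where the smallest adjusted p was 0.884 by the quasi-likelihood test of edgeR, adjusted after Benjamini and Hochberg. The unadjusted p was under 0.05 for 598 genes, 391 higher by day (2.85%) and 207 lower (1.51%). Limma-voom called 0 as well, and DESeq2's Wald test called 12, all lower by day. Of the latter, 10 encode products of the liver such as Alb (albumin) and Apoc3, and the others were Rpl35a-ps2 and ENSMUSG00000095041. In the matching 8 Ctrl libraries the edgeR test called 687 genes (5.02%), 294 higher by day (2.15%) and 393 lower (2.87%). This Ctrl count was 14 without CT20 and 1019 without CT4, the ends of the range over single libraries left out, 377 with a term for cycle and 1835 by DESeq2's Wald test. The median size of the log2 fold change over all tested genes was 0.09 in SCNx and 0.12 in Ctrl, with median standard errors (SE) of 0.12 and 0.08. All 4 day values lay above all 4 late night values for 129 genes in SCNx (0.942%), and below them for 99 (0.723%), while the same counts were 982 and 1227 in Ctrl.

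The libraries with brain and liver transcripts moved with the small p values. Of the 391 genes higher by day, 296 (75.7%) had their highest value in CT32, as did 20.9% of all tested genes. Of the 207 lower genes, 142 (68.6%) had their highest value in CT0, against 16.7% of all. Without both libraries the count of called genes was still 0, the smallest adjusted p by edgeR was 0.0567, and 343 genes had an unadjusted p under 0.05, of which 234 were higher by day. Named genes outside the lists were therefore taken from the 5053 of 12816 genes that had at least 1 CPM in every SCNx library and kept 1 direction in both cycles and without CT32 and CT0. Among these, 2410 were higher by day and 2643 lower, and since the direction was part of the choice it is no result about them.

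Of the 10 genes higher by day with the smallest p, 9 had windows that did not overlap, against 0.942% of all tested genes in that direction. Since they were chosen by p from the same mice, this count is no result about them. Synpo (synaptopodin, an actin-binding protein; ENSMUSG00000043079) measured 22.98, 24.4, 24.3 and 21.8 CPM at CT4, CT8, CT28 and CT32 and 18.2, 17.6, 21.3 and 18.9 CPM at CT0, CT20, CT24 and CT44. All day mice were higher than all late night mice, by a narrow margin at CT32 and CT24, and the log2 fold change was 0.31 ± 0.07 (SE; unadjusted p = 0.0023, adjusted p = 0.884 by edgeR). In Ctrl, Synpo rose by day by 0.62 on the log2 scale (adjusted p = 0.0349 by edgeR). Lrrc8c, a subunit of volume-regulated anion channels (ENSMUSG00000054720), measured 26.4, 29.1, 30.6 and 30.3 CPM by day and 22.1, 16.5, 23.9 and 20.9 CPM late at night in the same order. Its log2 fold change was 0.49 ± 0.12 (SE) in SCNx, with 0.50 in cycle 1 and 0.49 in cycle 2, and 0.89 in Ctrl (adjusted p = 0.0407 by edgeR).

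The prostaglandin E2 receptor gene Ptger4 stood between 3.87 and 4.09 CPM by day and between 2.46 and 3.095 CPM late at night in SCNx, a log2 fold change of 0.53. Pla2g4a, the cytosolic phospholipase A2 that releases arachidonic acid, ranged from 12.9 to 15.2 CPM by day and from 8.93 to 11.8 CPM late at night, with a log2 fold change of 0.36. Klf4, a zinc finger factor and immediate early gene, had 7.17 to 9.65 CPM against 4.75 to 7.08 CPM, and 0.53 on the log2 scale. The windows of these genes were apart in SCNx, and their Ctrl log2 fold changes were 0.34, 0.27 and 0.83, none of them called. Ccn4 (a matricellular protein), Dcaf12l2, Adprh (an ADP-ribosylarginine hydrolase) and Herc3 (a HECT ubiquitin ligase) were higher by day by log2 fold changes of 0.68, 0.50, 0.29 and 0.23. Ksr2, a scaffold of the MAP kinase cascade, was higher by 0.44 and overlapped, as CT28 at 23.3 CPM lay below CT24 at 24.0 CPM.

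Of the 10 genes lower by day, 8 had windows apart, against 0.723% of all tested genes in that direction, and this count too was largely set by the choice. The widest gap belonged to ENSMUSG00000095041, which carries no symbol in the table, with 56.7, 86.6, 63.5 and 80.9 CPM by day and 218.5, 137.2, 213.8 and 286.4 CPM late at night. Its log2 fold change in SCNx was -1.56 ± 0.23 (SE; unadjusted p = 0.000151, adjusted p = 0.884 by edgeR). In Ctrl the same gene ranged from 43.0 to 190.8 CPM by day and from 65.9 to 189 CPM late at night, so that these windows overlapped fully. Fkbp4, a co-chaperone of HSP90, measured 98.1, 102.1, 94.0 and 88.4 CPM by day and 118.8, 108, 103.1 and 112.6 CPM late at night, and its log2 fold change was -0.20 in each cycle. Nop16 (a nucleolar protein), Mif4gd (a partner of translation initiation factors) and Gadd45gip1 (a subunit of the mitochondrial ribosome) had log2 fold changes of -0.32, -0.29 and -0.25. Mif4gd and Nop16 fell by 0.36 and 0.35 on the log2 scale in Ctrl (adjusted p = 0.0240 and 0.0321 by edgeR). Pcgf1 (Polycomb) was lower by day by -0.23, 1700055D18Rik by -0.47 and the clock gene Nfil3 by -0.43. Pisd-ps1 and H2-Q6, a pseudogene and a class I histocompatibility gene at -0.84 and -0.83, overlapped between windows, and their reads can be shared with near-identical copies. Pisd-ps1 followed ENSMUSG00000095041 late at night, with 6.64, 3.74, 5.28 and 7.16 CPM at CT0, CT20, CT24 and CT44. These entries may therefore not be separate observations, and whether they share reads was not tested.

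Clock genes are described next by role, and promoter sequences of 4 clock genes with an E-box, where CLOCK and BMAL1 bind, are shown first. The canonical E-box, CACGTG on either strand, was found within the 250 bases before the RefSeq start of 5 of the 22 clock list genes that had such a window (Bhlhe41, Ciart, Cry1, Per1 and Tef), and in 1854 of 27025 genes overall (6.86%). A match is a description of the letters, not of binding. The windows are from RefSeq, build GRCm38.p6, on the strand of the gene, with the E-box in capitals. They lie at chr3:95882229-95882478 (minus) for Ciart, all 250 bases with E-boxes starting 116, 58 and 44 bases before the start, and as stretches of 60 bases at chr15:81802519-81802578 (plus) for Tef, chr6:145865541-145865600 (minus) for Bhlhe41 and chr10:85185082-85185141 (minus) for Cry1, with the E-box starting 127 bases before the start for Tef.
Ciart: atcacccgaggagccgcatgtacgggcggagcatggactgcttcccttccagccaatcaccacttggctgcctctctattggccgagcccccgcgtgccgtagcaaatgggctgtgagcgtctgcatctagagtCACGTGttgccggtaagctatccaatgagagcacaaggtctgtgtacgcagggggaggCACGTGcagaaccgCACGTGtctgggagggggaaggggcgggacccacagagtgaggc
Tef: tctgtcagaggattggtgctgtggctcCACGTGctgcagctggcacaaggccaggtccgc
Bhlhe41: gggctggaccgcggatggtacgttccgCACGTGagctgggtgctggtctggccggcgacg
Cry1: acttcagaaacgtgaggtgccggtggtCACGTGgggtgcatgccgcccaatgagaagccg

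All 29 clock list genes were tested. None was called in SCNx, 3 had an unadjusted p under 0.05 (Ciart and Fbxl21 higher by day, Nfil3 lower), which is 10.3% against 4.37% of all tested genes, and Nfil3 alone had windows apart, which 1.67% of all genes did. Without CT32 and CT0, 7 of the 29 had an unadjusted p under 0.05 (24.1%, against 2.50% of all genes), among them Ciart, Dbp, Nr1d1, Nr1d2, Cry1 and Nfil3. In that fit the median size of the log2 fold change was 0.24, against 0.07 over all genes. Without SCNx CT8, 3 of the 29 had such a p, as did 1078 of all 13697 tested genes, and the clock median size was 0.11. Without SCNx CT20 these numbers were 2, 314 and 0.19. In Ctrl 10 were called (34.5%, against 5.02% of all), 7 higher by day and 3 lower, and 15 had windows apart (51.7%, against 16.1% of all). The median size of the log2 fold change was 0.19 in SCNx and 0.62 in Ctrl, where all tested genes had 0.09 and 0.12. The direction in SCNx was that of Ctrl for 21 of the 29 (72.4%, against 66.2% of all genes). The change in SCNx was the smaller one for 23 (79.3%, against 58.8% of all genes). Across these 29 genes the log2 fold changes of SCNx and Ctrl had a Pearson r of 0.81 and a Spearman rho of 0.86, as a description over genes that share libraries, where all 13697 genes had 0.45 and 0.43. Without SCNx CT32, SCNx CT0 and Ctrl CT4 these were 0.10 and 0.40 over all genes.

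Among the E-box repressors, Ciart (CHRONO, a repressor of CLOCK and BMAL1, the first sequence above; ENSMUSG00000038550) measured 2.22, 5.29, 1.25 and 1.28 CPM by day at CT4, CT8, CT28 and CT32. Late at night it measured 1.41, 0.398, 1.24 and 0.806 CPM at CT0, CT20, CT24 and CT44. The high value was SCNx CT8 and the low one CT20, both of cycle 1, and the windows overlapped over the 8 mice. The log2 fold change was 1.37 ± 0.56 (SE; unadjusted p = 0.0399), with 2.02 in cycle 1 and 0.35 in cycle 2. It was 0.74 without CT8, and 1.83 without CT32 and CT0 (unadjusted p = 0.0132). In Ctrl both CT8 and CT32 stood at 6.57 CPM, and the Ctrl log2 fold change was 2.98 (adjusted p = 0.0665 by edgeR). Bhlhe41 (DEC2) ranged from 12.7 to 31.8 CPM by day, highest at CT8, and from 12.0 to 15.3 CPM late at night. Its log2 fold change was 0.57 in SCNx, which was not called, and in Ctrl it rose by 1.57 on the log2 scale (adjusted p = 0.0320 by edgeR). Bhlhe40 (DEC1) stood at 0.07 in SCNx and 0.20 in Ctrl.

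Of the D-box factors, Dbp, a strong output of the clock (ENSMUSG00000059824), measured 39.6, 89.5, 23.3 and 20.4 CPM by day and 34.7, 17.4, 26.3 and 24.4 CPM late at night. SCNx CT8 was again the highest, and both day mice of cycle 2 lay below all late night mice but CT20. The log2 fold change of Dbp was 0.74 ± 0.46 (SE; unadjusted p = 0.142), from 1.28 in cycle 1 and -0.17 in cycle 2. It was 0.14 without CT8, and 1.15 without CT32 and CT0 (unadjusted p = 0.0275). In Ctrl, Dbp rose by 2.77 on the log2 scale (adjusted p = 0.0190 by edgeR), with 31.1 to 115.6 CPM by day and 8.69 to 11.5 CPM late at night. Tef and Hlf had SCNx log2 fold changes of 0.29 and 0.30, with 0.56 in cycle 1 for both and -0.04 and 0.04 in cycle 2. Hlf rose in Ctrl by 0.62 on the log2 scale (adjusted p = 0.0256 by edgeR).

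Nfil3, the repressor that competes with these factors at D-boxes (ENSMUSG00000056749), measured 9.33, 8.92, 11.28 and 10.95 CPM by day and 13.8, 15.2, 11.30 and 14.8 CPM late at night. All day mice were below all late night mice, though CT28 and CT24 were nearly equal. The log2 fold change was -0.43 (95% interval -0.74 to -0.12; adjusted p = 0.884 by edgeR), with -0.69 in cycle 1 and -0.19 in cycle 2, and its range was -0.52 to -0.35 when each library in turn was left out. In Ctrl, Nfil3 fell by 1.66 on the log2 scale (adjusted p = 0.0172 by edgeR).

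**Figure D2:**
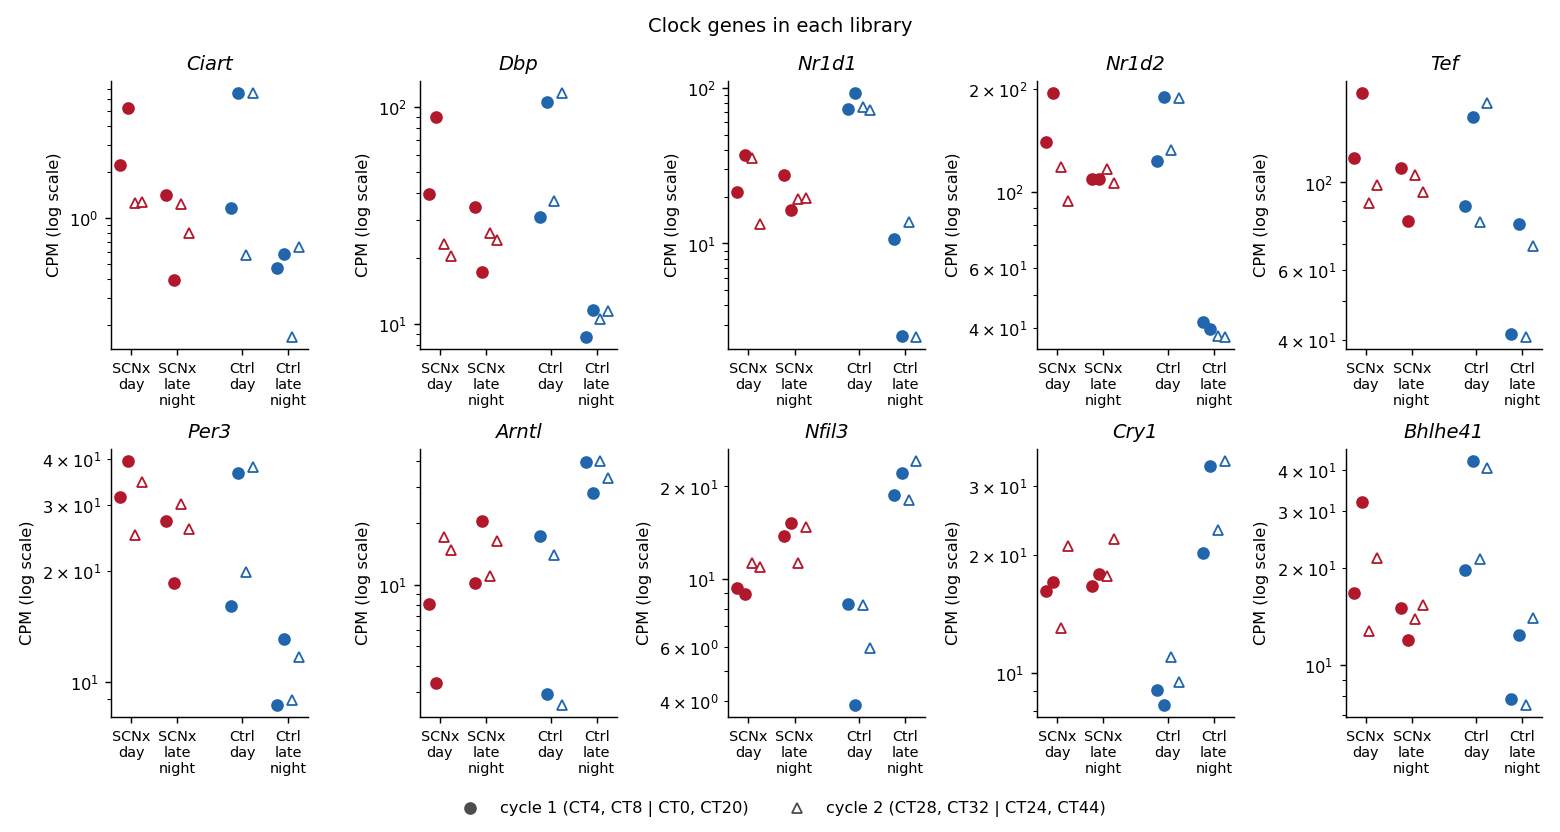
CPM of 10 clock genes in each library on log axes, for SCNx (red) and Ctrl (blue) in day and late night. Filled circles are cycle 1 and open triangles cycle 2, each point is 1 mouse. SCNx CT8 was the highest SCNx library for Ciart (5.29 CPM), Dbp (89.5 CPM) and Nr1d2 (194.3 CPM) and the lowest for Arntl (3.31 CPM), and the Nfil3 windows were just apart.

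The windows of the REV-ERB genes were far apart in Ctrl and overlapped in SCNx. Nr1d2 (REV-ERB beta; ENSMUSG00000021775) measured 139.6, 194.3, 118 and 94.4 CPM by day and 109.4, 109.4, 116.8 and 106.5 CPM late at night in SCNx. In Ctrl it stood between 123.5 and 189.9 CPM by day and between 37.8 and 41.7 CPM late at night, so that all SCNx late night mice were above all Ctrl late night mice. The log2 fold change was 0.31 in SCNx (95% interval -0.10 to 0.72) and 2.01 in Ctrl (adjusted p = 0.00224 by edgeR). In SCNx it was 0.11 without CT8, and 0.43 without CT32 and CT0 (unadjusted p = 0.0276). Nr1d1 (REV-ERB alpha; ENSMUSG00000020889) measured 21.6, 37.3, 35.5 and 13.4 CPM by day and 27.6, 16.5, 19.4 and 19.5 CPM late at night in SCNx, with CT32 below all other mice. Its log2 fold change was 0.37 (95% interval -0.33 to 1.08) in SCNx and 3.405 in Ctrl (adjusted p = 0.0179 by edgeR). Without CT32 and CT0 the SCNx value was 0.76 (unadjusted p = 0.00397), and with single libraries left out it ran from 0.19 without CT8 to 0.58 without CT32. Rora, of the ROR genes, was higher by day by 0.13 in SCNx and rose by 0.43 on the log2 scale in Ctrl (adjusted p = 0.0172 by edgeR).

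In the positive arm, Arntl (BMAL1; ENSMUSG00000055116) measured 8.04, 3.31, 17.2 and 14.8 CPM by day and 10.2, 20.5, 11.1 and 16.3 CPM late at night in SCNx. CT8 was the lowest at 3.31 CPM, where Ctrl CT8 held 2.94 CPM, and in cycle 2 the order of the windows was not kept. The log2 fold change was -0.40 ± 0.49 (SE), from -1.45 in cycle 1 and 0.26 in cycle 2. It was -0.09 without CT8, and -0.76 without CT32 and CT0 (unadjusted p = 0.166). In Ctrl it was -1.93 (adjusted p = 0.0747 by edgeR), with 2.59 to 17.3 CPM by day and 28.0 to 40.0 CPM late at night. Npas2 had -0.31 in SCNx and -0.96 in Ctrl, and Clock -0.14 and -0.19.

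Of the repressors of the core loop, Per3 ranged from 25.0 to 39.5 CPM by day and from 18.5 to 30.3 CPM late at night in SCNx, a log2 fold change of 0.37 (unadjusted p = 0.0754), and it rose by 1.38 on the log2 scale in Ctrl (adjusted p = 0.0365 by edgeR). Per1, which also responds to glucocorticoids, was higher by 0.26 in SCNx (unadjusted p = 0.0621), at 0.19 in cycle 1 and 0.33 in cycle 2, and stood at -0.13 in Ctrl. Per2 and Cry2 had log2 fold changes of 0.10 and 0.15 in SCNx. Cry1 ranged from 12.99 to 21.2 CPM by day and from 16.7 to 22.1 CPM late at night in SCNx, while in Ctrl all day mice (8.28 to 10.96 CPM) were under all late night mice (20.3 to 34.8 CPM). Its log2 fold change was -0.12 in SCNx, -0.33 without CT32 and CT0 (unadjusted p = 0.0348), and -1.57 in Ctrl (adjusted p = 0.0136 by edgeR).

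The kinases and ligases that set the stability of PER and CRY were near even, with Csnk1d at 0.0003, Csnk1e at 0.19, Btrc at 0.15 and Fbxw11 at -0.03 in SCNx. Fbxl21, a ligase for CRY proteins, was the exception at 0.72 ± 0.28 (SE; unadjusted p = 0.0329), at 1.14 in cycle 2 and 0.17 in cycle 1, with its highest value of 4.23 CPM in CT32. It stood at 0.47 without CT32 and CT0 (unadjusted p = 0.112), and at -0.02 in Ctrl. The outputs Wee1, Nampt, Usp2 and Cdkn1a had log2 fold changes between 0.01 and 0.08 in SCNx.

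The windows were also compared within each cycle, with 2 mice against 2. In cycle 1 no gene was called by edgeR (0%, smallest adjusted p = 0.165), and 449 had an unadjusted p under 0.05 (3.28%), 121 higher by day and 328 lower. Among the lower ones, 261 had their highest value of the cycle in CT0. In cycle 2 no gene was called either (0%, smallest adjusted p = 0.558 by edgeR), and 657 had an unadjusted p under 0.05 (4.8%), 571 higher and 86 lower, and 535 of the higher ones were highest in CT32. DESeq2's Wald test called 39 genes in cycle 1 and 16 in cycle 2. Without CT0 and CT32, which leaves 1 mouse in a window of each cycle, edgeR called 0 in either, and 714 and 157 genes had an unadjusted p under 0.05. Over all genes 51.6% had the same direction in both cycles, and the log2 fold changes of the cycles had a Pearson r of 0.18 and a Spearman rho of 0.06. Only 19 genes had an unadjusted p under 0.05 in both cycles, and 6 of them had the same direction.

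The change was larger in size in cycle 1 for 21 of the 29 clock genes, and for 5597 of the 13697 tested genes. Of the 29, 8 had an unadjusted p under 0.05 in cycle 1 and 1 in cycle 2, where 3.28% and 4.8% of all tested genes did. The median size was 0.28 in cycle 1 and 0.14 in cycle 2, where all tested genes had 0.10 and 0.14. Without the mouse SCNx CT8 the clock median size in cycle 1 was 0.15, and without CT20 it was 0.20, each with a lone mouse left in a window.

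The change itself differed between the cycles for no gene by edgeR (0%, smallest adjusted p = 0.46), for 393 at an unadjusted p under 0.05 and for 10 by DESeq2's Wald test. The smallest p belonged to Gm43951, a predicted gene, which measured 1.49 and 1.66 CPM at CT4 and CT8, 11.5 and 13.7 CPM at CT28 and CT32, and 8.54 to 11.9 CPM late at night. It was low in the day mice of cycle 1 alone, with log2 fold changes of -2.77 in cycle 1 and 0.35 in cycle 2 (unadjusted p = 3.58e-05), and in Ctrl it was low at CT32 with 0.848 CPM. Chtf8, a subunit of an alternative clamp loader in replication, had 61.3 and 70.3 CPM by day in cycle 1 and 40.4 and 38.4 CPM in cycle 2, while late at night it had 44.0 and 50.8 CPM and then 70.7 and 68.6 CPM. Chtf8 shares its locus with another gene, so counts may be split between them. Mical2 (an actin oxidase) and Dtx3 (an E3 ligase) had negative log2 fold changes in cycle 1, -0.45 and -0.29, and positive ones in cycle 2, 0.37 and 0.26.

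**Figure D3:**
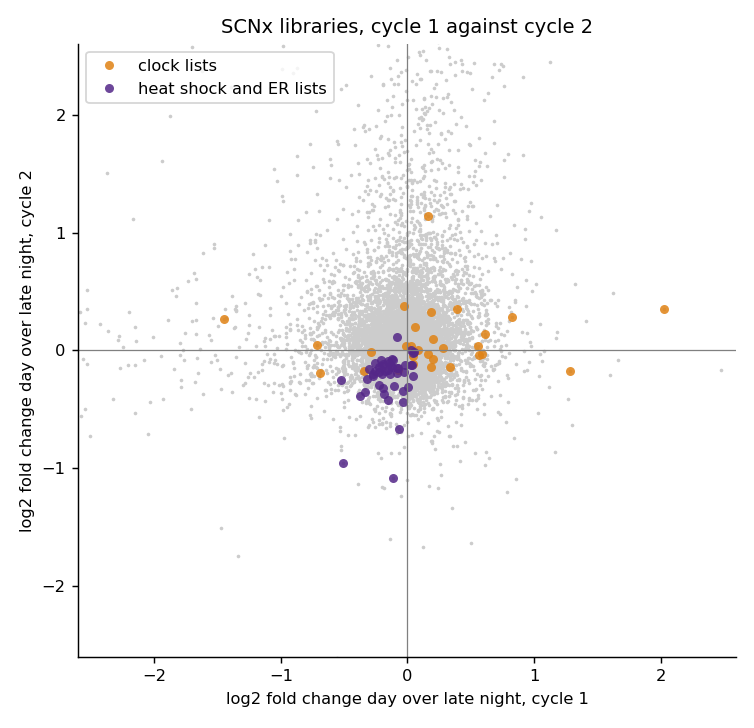
Log2 fold change of day over late night in SCNx in cycle 1 (x axis) and cycle 2 (y axis), 1 point per tested gene in grey, with the clock lists in orange and the heat shock and endoplasmic reticulum lists in purple, and 439 genes outside the axes. Clock genes spread along the cycle 1 axis, up to 2.02 for Ciart, and most heat shock and endoplasmic reticulum genes lay below 0 in both cycles.

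Heat shock genes and those of the endoplasmic reticulum (ER) were mostly lower by day in SCNx, with no gene called. Heat shock genes, which help proteins fold and respond to body temperature, were lower by day for 18 of 20, where 51.4% of all genes were. In this list 7 had an unadjusted p under 0.05 (35%, against 4.37% of all; Fkbp4, Ahsa1, Hspa1b, Hspa1a, Dnaja1, Hspd1 and Stip1). Their median log2 fold change was -0.15, with -0.12 in cycle 1, -0.19 in cycle 2 and -0.14 without CT32 and CT0, against -0.004 for all genes. In all 4 of these fits 16 of the 20 were lower by day, as were 20.0% of all tested genes. In Ctrl all 20 were lower with a median of -0.38, and 6 were called (30.0%, against 2.87% of all genes called lower). Hspa1b and Hspa1a, the inducible HSP70 genes, had log2 fold changes of -0.74 and -0.62 in SCNx, and as near-identical copies they may share reads. Hspa1b measured 2.43 to 3.28 CPM by day and 3.14 to 6.8 CPM late at night, and the windows overlapped only at CT20. Ahsa1, an activator of HSP90, stood between 51.5 and 58.0 CPM by day and between 56.6 and 67.5 CPM late at night, overlapping at CT8 and CT24, a log2 fold change of -0.22.

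ER genes, which comprise its chaperones and the unfolded protein response, were lower by day for 25 of 27, of which 2 had an unadjusted p under 0.05 (7.41% of the list, against 4.37% of all genes), Sdf2l1 (a chaperone partner; -0.38) and Xbp1 (the factor of the response; -0.26). Their median was -0.18 in SCNx, -0.17 in cycle 1, -0.16 in cycle 2 and -0.18 without CT32 and CT0, and 23 of 27 were lower in all 4 fits. In Ctrl the median was -0.51 and 19 of 27 were called lower by day (70.4%, against 2.87% of all genes). The difference between SCNx and Ctrl had an unadjusted p under 0.05 for 10 of the 27, and for 6.55% of all genes. The summed CPM of the list was 7770, 6709, 8295 and 7014 by day and 7927, 8118, 7841 and 9740 late at night. CT44 was the highest and CT8 the lowest, and CT28 was above 3 of the late night mice. Without CT44 the log2 difference of the sums was -0.10, and without CT28 it was -0.23, where the whole set gave -0.17 (exact permutation p = 0.2, two-sided). Herpud1, which helps ER-associated degradation, stood at 155.8 CPM in CT44 and 95.6 to 105.3 CPM in the other late night mice, with 69.5 to 97.3 CPM by day.

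For Hspa5 and Creld2, both named after their values were seen, the promoters hold the ER stress response element, searched as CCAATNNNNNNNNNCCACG on both strands. It lay in the 250 bases before the start of 9 of the 23 ER list genes with a window (Calr, Canx, Creld2, Derl3, Dnajc3, Hsp90b1, Hspa5, Pdia6 and Syvn1) and of 35 of 27025 genes (0.13%). The stretches are from RefSeq, GRCm38.p6, at chr2:34772005-34772063 (plus) for Hspa5 and chr15:88819500-88819558 (plus) for Creld2, with the element in capitals, which is on the opposite strand in Creld2.
Hspa5: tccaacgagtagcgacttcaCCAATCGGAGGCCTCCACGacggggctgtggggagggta
Creld2: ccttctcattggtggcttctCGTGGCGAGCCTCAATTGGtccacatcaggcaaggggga
Hspa5 (BiP, the main ER chaperone) measured 1358, 868.7, 1433 and 1225 CPM by day and 1391, 1263, 1342 and 1830 CPM late at night in SCNx. The windows overlapped, with CT8 low and CT44 high, and the log2 fold change was -0.24 (95% interval -0.67 to 0.18). In Ctrl, Hspa5 fell by 0.83 on the log2 scale (adjusted p = 0.0378 by edgeR) and Creld2 by 1.14 (adjusted p = 0.0271), where Creld2 stood at -0.29 in SCNx.

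The direction of most other lists in SCNx turned with the libraries used. Of all 13697 tested genes, 6661 were higher by day over the 8 libraries, and 4.37% had an unadjusted p under 0.05 there. In each cycle 6682 of them were higher by day, and 6823 were without CT32 and CT0. Of 17 glucocorticoid targets, 7 were higher by day and 10 lower with a median of -0.05, and 1 had an unadjusted p under 0.05, the lipid droplet gene Plin4 at -0.46, and without CT32 and CT0 12 of the 17 were higher. Immediate early genes were higher for 8 of 14 with a median of 0.03. Klf4 and Ier3 (0.38) had an unadjusted p under 0.05 (14.3% of the list). Klf6 stood at 0.29, with its highest value of 21.3 CPM in CT32, and ranged from 0.11 to 0.39 over the main and alternative fits. Ier2 stood at -0.44, with its highest value of 4.31 CPM in CT0, and ranged from -0.55 to -0.13 over those fits. Sterol synthesis genes were split 8 to 8 with a median of -0.002, from -0.17 in cycle 1, where CT0, the library with hepatocyte markers, held the highest sum (1442 CPM) and CT20 the lowest (762.3 CPM), and 0.15 in cycle 2. Without CT32 and CT0, 15 of these 16 were higher by day with a median of 0.13, as 15 were in cycle 2, whereas 3 were in cycle 1, and none had an unadjusted p under 0.05 in any of these fits. Mvd (mevalonate pathway) stood at -0.42, with its highest value of 13.1 CPM in CT0, and ranged from -0.56 to -0.15 over the main and alternative fits. Its regulator Srebf2 stood at 0.13. Of the 14 genes of fasting and insulin, 7 were higher. Pdk4, a kinase that restrains pyruvate use, stood at -0.21. The 21 transport and secretion genes of the epithelium had a median of -0.02, where 18 were higher in cycle 1 and 1 was higher in cycle 2, the cycle of CT32, with Slc20a2 (phosphate transport) at -0.09 and Car2 (carbonic anhydrase) at -0.14.

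Cirbp and Rbm3 encode cold-inducible RNA-binding proteins, which follow body temperature. Cirbp measured 27.01, 33.5, 31.5 and 28.96 CPM by day and 30.4, 14.8, 20.4 and 35.4 CPM late at night in SCNx, with CT20 the lowest and CT44 the highest, and a log2 fold change of 0.27. Rbm3 stood at 0.01. In Ctrl they rose by 1.13 and 0.72 on the log2 scale (adjusted p = 0.0190 and 0.0247 by edgeR). Without CT20 the log2 difference of their sums in SCNx was -0.12, where all 8 libraries gave 0.13.

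With 4 mice against 4, the smallest two-sided p that the 70 placements of an exact permutation test can give is 0.0286. For the sums of the 25 lists in SCNx the smallest adjusted p was 0.79 over the lists (exact permutation test). The heat shock sum differed by -0.11 (exact p = 0.114), and -0.20 with the median over the genes in place of the sum (exact p = 0.0286, adjusted p = 0.357). In Ctrl the sums of heat shock, ER, cold-inducible and 4 of the clock lists had windows apart. The markers of fibroblasts, endothelium, macrophages and blood did as well. The margin was narrow for macrophages (56.65 CPM at Ctrl CT32, 56.58 at CT44) and endothelium (105.7 CPM at Ctrl CT32, 105.4 at CT20). Each of these lists had an exact permutation p = 0.0286 and an adjusted p = 0.0649.

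**Figure D4:**
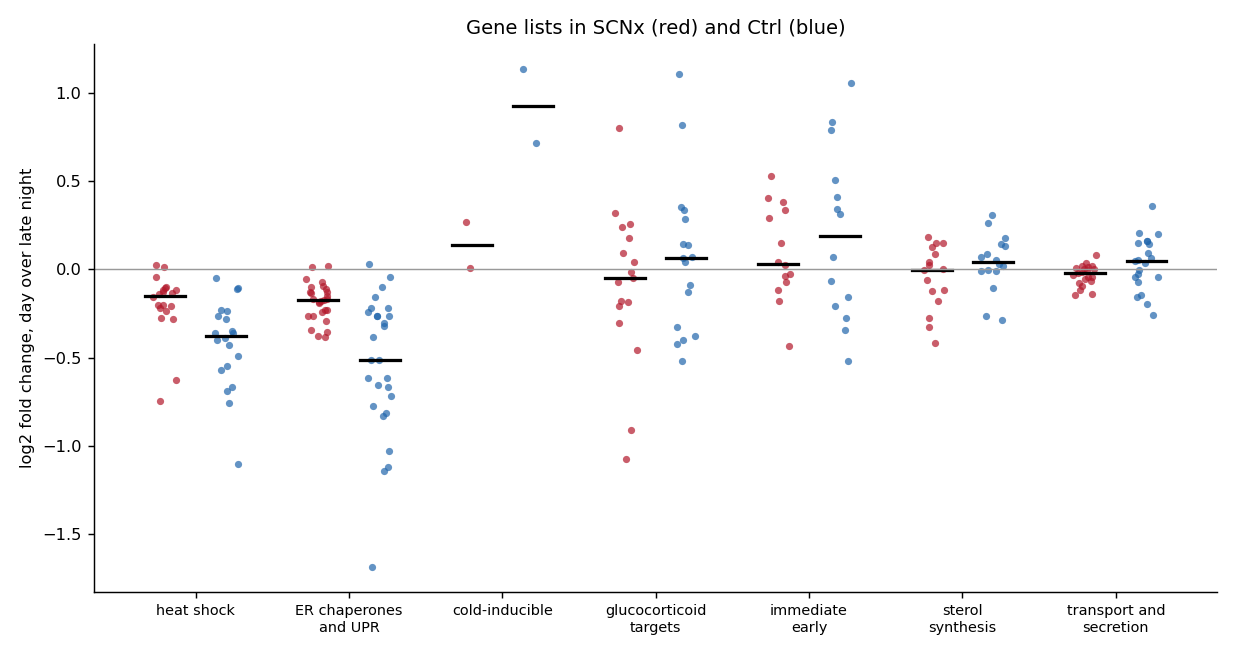
Log2 fold change of day over late night for each gene of 7 lists in SCNx (red) and Ctrl (blue), with the median as a black bar. Heat shock and ER genes lay mostly below 0 in SCNx, with medians of -0.15 and -0.18, against -0.38 and -0.51 in Ctrl, and the other lists had medians between -0.05 and 0.14 in SCNx.

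The difference between SCNx and Ctrl in the day against late night change was tested over all 16 libraries. No gene was called (0%), with the smallest adjusted p of 0.0744 by edgeR for Nr1d2, and 0 genes were called without CT32 and CT0 (smallest adjusted p = 0.2003 by edgeR). Over the 16 libraries 897 had an unadjusted p under 0.05 (6.55%), 441 with a more positive change in SCNx and 456 with a more negative one. DESeq2's Wald test called 22, among them Nr1d1, Nr1d2, Cry1 and Nfil3, and limma-voom called 3, Nr1d1, Nr1d2 and Sult1c2. Of the 29 clock genes 12 had an unadjusted p under 0.05. The change of Nr1d2 was smaller in SCNx by -1.70 on the log2 scale (95% interval -2.22 to -1.18), and that of Nr1d1 by -3.04 (-4.44 to -1.64; adjusted p = 0.486), or by -2.65 without CT32 and CT0. For Cry1 and Nfil3, which fell by day in Ctrl, the change was more positive in SCNx by 1.45 (0.87 to 2.03) and 1.23 (0.62 to 1.84).

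Grm8 and Sult1c2 had windows apart in opposite directions in SCNx and Ctrl. Both were chosen by the p of the difference from the same mice, so this is no result about them. Over all tested genes, windows were apart for 1.67% in SCNx and 16.1% in Ctrl. Grm8, a metabotropic glutamate receptor (ENSMUSG00000024211), measured 18.6, 19.4, 21.9 and 18.7 CPM by day and 17.3, 17.6, 15.1 and 13.8 CPM late at night in SCNx. In Ctrl it measured 16.4 to 20.3 CPM by day and 22.1 to 25.0 CPM late at night, and the log2 fold changes were 0.31 and -0.35 (Ctrl adjusted p = 0.0387, difference 0.66, adjusted p = 0.410, by edgeR). The SCNx value of Grm8 was 0.10 in cycle 1 and 0.53 in cycle 2. Sult1c2, a sulfotransferase (ENSMUSG00000023122), had 5.91 to 6.44 CPM by day and 6.71 to 7.43 CPM late at night in SCNx, against 3.89 to 6.13 CPM and 2.51 to 3.48 CPM in Ctrl. Its log2 fold changes were -0.18 (unadjusted p = 0.0709) and 0.75 (Ctrl adjusted p = 0.0475, difference -0.93, adjusted p = 0.410, by edgeR). H2-Q6 had -0.83 in SCNx and 0.97 in Ctrl, with the reserve on shared reads given above. Zbtb40 (a zinc finger protein), Ero1b (an ER oxidase) and D630023O14Rik were called in Ctrl at -0.72, -0.56 and 0.81 and stood at -0.16, -0.06 and -0.25 in SCNx. Gigyf2 (a translational repressor) rose by 0.40 in Ctrl and stood at 0.07 in SCNx.

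The 687 genes called in Ctrl were followed in SCNx as a description, since they were chosen from the Ctrl values. In SCNx 588 of them (85.6%) had the direction of Ctrl, where 66.2% of all tested genes did. Without CT32 and CT0 the same shares were 90.1% and 63.4%, in cycle 1 they were 87.9% and 65.5%, and in cycle 2 they were 69.4% and 58.9%. The median SCNx log2 fold change in the direction of Ctrl was 0.11, with 0.15 in cycle 1 and 0.08 in cycle 2, and was 0.05 over all genes. The change was smaller in SCNx than in Ctrl for 663 of the 687, and for 58.8% of all genes. An unadjusted p under 0.05 in SCNx was found for 47 (6.84%, where 4.37% of all genes had one), 46 of them in the direction of Ctrl, and windows were apart for 28 in that direction and for 2 in the opposite one, where 1.67% of all genes had windows apart.

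A score was formed as the mean log2(CPM + 1) of the genes higher by day in Ctrl minus that of the genes lower by day, with the Ctrl late night mean set to 0. In SCNx it was 0.661, 0.815, 0.642 and 0.737 by day at CT4, CT8, CT28 and CT32, and 0.580, 0.258, 0.479 and 0.579 late at night at CT0, CT20, CT24 and CT44. Every day mouse was above every late night mouse, with means of 0.714 ± 0.079 (SD, n = 4) and 0.474 ± 0.152 (SD, n = 4). The difference was 0.239, which is 27% of the 0.887 found in Ctrl where the choice of the genes set it. It was 0.267 without CT32 and CT0, 0.318 in cycle 1 and 0.161 in cycle 2. In Ctrl the score ran from 0.833 to 0.971 by day and from -0.105 to 0.0719 late at night, so that the late night mice of SCNx all stood above those of Ctrl and the day mice of SCNx below those of Ctrl. In the early night, which entered no test, the SCNx score was 0.462 at CT12, 0.419 at CT16, 0.443 at CT36 and 0.246 at CT40.

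The windows of the score stayed apart in SCNx for parts of the same 687 genes and for genes of the same Ctrl contrast refitted. These sets largely repeat the first, so near values follow from the choice and are no independent support. Without the 10 called clock genes the difference was 0.233 (27.5% of Ctrl), and without the clock, heat shock and ER lists, which left 652 genes, it was 0.226 (27.2%). With the 1019 genes called in Ctrl without CT4, the Ctrl library with brain markers, it was 0.216 (25.4%). The summed markers of fibroblasts, endothelium and macrophages differed between day and late night by log2 values of 0.27, 0.49 and 0.29 in Ctrl. There the windows were apart, though narrowly for endothelium and macrophages. In SCNx these markers differed by 0.06, 0.35 and 0.15, and the windows overlapped. The blood markers differed by 1.13 in Ctrl, where the windows were apart as well, and by -0.88 in SCNx. Their part in the score was not tested.

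**Figure D5:**
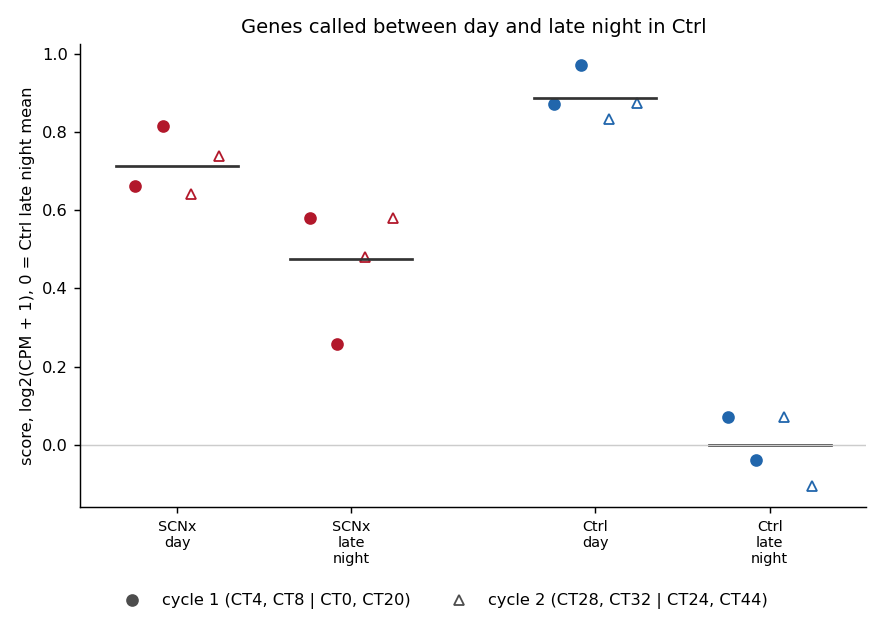
Score of the 687 genes called in Ctrl, as the mean log2(CPM + 1) of those higher by day minus those lower by day, with 0 at the Ctrl late night mean, for SCNx (red) and Ctrl (blue). Filled circles are cycle 1 and open triangles cycle 2, each point is 1 mouse and bars are means. SCNx day mice (0.642 to 0.815) lay above SCNx late night mice (0.258 to 0.580), and both lay between the 2 Ctrl windows.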

How the data were processed

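RNA was taken from the ChP of single mice, polyA-selected and sequenced single-end, 1 library per mouse. The authors ran nf-core/rnaseq against GRCm39 and deposited estimated counts per gene, and the submitters' processing notes name STAR, Salmon 1.9.0, StringTie 2.2.1, SAMtools 1.16.1 and cutadapt 3.4. The 24 Ctrl and SCNx libraries were read here and the KO libraries were left out. The counts were rounded to whole numbers and, for the filter, scaled by library size alone. Genes with a mean of at least 1 CPM over all libraries of each surgery group, early night included, were kept. Trimmed mean of M values (TMM) factors entered the edgeR fits and the CPM levels given here.

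Day and late night were compared with edgeR's quasi-likelihood test, called at a Benjamini-Hochberg adjusted p of 0.05, in SCNx, in each cycle, in Ctrl, and as an interaction over the 16 libraries. In SCNx alone 8 libraries entered, in Ctrl 8. List sums were compared by two-sided exact permutation tests of log2 sums over the mice. Fold changes are log2 of day over late night. The scripts were tested on simulated data with known changes. Alternatives comprised DESeq2 size factors and Wald test, limma-voom with quality weights, a robust fit, other filters on low counts, a term for cycle, all 24 libraries, and each library left out. The tools were R 4.3.3, edgeR 4.0.16, limma 3.58.1, DESeq2 1.42.0, Python 3.11.15, pandas 2.3.3 and numpy 2.4.6. Depth was similar in all libraries and is given with the results.

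Named genes were all clock list genes, the 10 per direction with the smallest p in SCNx that had at least 1 CPM in all 8 libraries and 1 direction in both cycles and without CT32 and CT0, 5 per direction with the smallest p for the difference between SCNx and Ctrl, 5 for the difference between the cycles, and 2 to 4 of every other list. A few genes that these rules name are not reported here. The comparison, the gene lists and these rules were chosen with earlier results of these data known. Promoter windows came from RefSeq tables of GRCm38.p6, and no coordinate was carried to GRCm39. The p values measure the spread between single mice killed at different times of a window.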

Additional observations from a re-analysis of the deposited data

Results flagged for a closer look

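Within the groups of 4 mice, 198 sets of values for named genes and lists were examined for a single mouse far from the others, and 16 were found in SCNx. Chance gives about 1 in 20 such sets. No explanation was tested.

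SCNx CT32 stood alone among the day mice for 8 of them. The neuronal markers summed to 680.3 CPM (other day mice 132.3 to 144.1 CPM), the oligodendrocyte markers to 245.2 CPM (60.1 to 71.97 CPM) and the astrocyte markers to 880.2 CPM (27.8 to 48.0 CPM). It was the low mouse for the transport and secretion genes, with a sum of 18510 CPM (25360 to 25840 CPM), and for the kinases and ligases of the clock, with 354.5 CPM (377.1 to 380.6 CPM). Fbxw11, a ligase of that list, stood at 101.4 CPM (120.3 to 124.0 CPM), Mif4gd at 15.7 CPM (18.8 to 19.1 CPM) and Nop16 at 8.34 CPM (10.7 to 10.9 CPM).

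SCNx CT0 stood alone among the late night mice for 3. The hepatocyte markers summed to 13230 CPM (4.995 to 13.3 CPM), while the transport and secretion genes summed to 22070 CPM (25050 to 25270 CPM) and Fbxw11 stood at 113.0 CPM (122.6 to 124.2 CPM).

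SCNx CT44 stood alone among the late night mice for 4 others. Herpud1 reached 155.8 CPM (95.6 to 105.3 CPM) and the ER genes summed to 9740 CPM (7841 to 8118 CPM). The blood markers summed to 6615 CPM (151.2 to 997.5 CPM) and the oligodendrocyte markers to 100.4 CPM (58.3 to 62.5 CPM). Among the day mice, SCNx CT8 had the low sum of sterol synthesis genes, 891 CPM (1071 to 1093 CPM).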

How the results depend on the processing

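The count of 0 genes in SCNx held by edgeR with each single library left out, with the other filters, with DESeq2 size factors, in the robust fit, with a cycle term and without CT32 and CT0, and by limma-voom. DESeq2's Wald test called 12 in SCNx, 39 in cycle 1, 16 in cycle 2, 10 for the difference between cycles, 1835 in Ctrl and 22 for the difference between SCNx and Ctrl, and limma-voom called 1756 in Ctrl and 3 for that difference. With no filter on low counts 1 gene (Gm43951) was called in cycle 1, 5 in cycle 2 and 3 for the difference between cycles. For the difference between SCNx and Ctrl 1 gene, Nr1d2, was called with a mean CPM of at least 5, without SCNx CT32 and Ctrl CT4 and with all 24 libraries. With a cycle term 377 were called in Ctrl. With single libraries left out the counts ran from 0 to 0 in SCNx, 0 to 245 in cycle 1 (245 without CT20), 0 to 1015 in cycle 2 (1015 without CT28), 0 to 598 for the difference between cycles (598 without CT28, 81 without CT20), 14 to 1019 in Ctrl (14 without CT20, 106 without CT44, 187 without CT8, 243 without CT28, 331 without CT24, 351 without CT32, 1019 without CT4) and 0 to 1 for the difference between SCNx and Ctrl (1 without SCNx CT8 or Ctrl CT4). Within a cycle this leaves a lone mouse in 1 window, which is assumed to vary like the others. Without CT20 that mouse was CT0, which held liver transcripts, and nearly all genes called in cycle 1 were lower by day. Without CT28 it was CT32, which held brain transcripts, and most genes called in cycle 2 were higher by day. Time of day and the content of these samples cannot be told apart in such counts. Of 1515 alternative values for 77 gene results 1475 kept their direction and side of the threshold, 20 (9 genes) changed direction and 20 passed it. Of 250 for the 25 list sums, 26 (12 lists) changed direction. Without CT32 and CT0 the log2 differences that changed direction were 0.13 for glucocorticoid targets, 0.020 for transport and secretion, -0.060 for neuronal, -0.12 for oligodendrocyte and -0.41 for astrocyte markers and -0.019 for Csnk1e, and with no filter -0.0087 for Csnk1d. With single libraries left out, list sums that changed direction ran from -0.015 to 0.041 (clock kinases and ligases), -0.079 to 0.14 (clock outputs), -0.093 to 0.088 (glucocorticoid targets), -0.12 to 0.30 (cold-inducible), -0.14 to 0.17 (sterol synthesis), -0.083 to 0.0026 (fasting and insulin), -0.096 to 0.068 (transport and secretion), -0.22 to 7.2e-05 (epithelial markers), -0.014 to 0.77 (neurons), -0.040 to 0.64 (oligodendrocytes), -0.34 to 1.32 (astrocytes) and -1.71 to 0.11 (blood). Genes that did so ran from -0.00051 to 0.27 (Per2), -0.027 to 0.16 (Bhlhe40), -0.0068 to 0.020 (Csnk1d), -0.062 to 0.0088 (Fbxw11), -0.045 to 0.19 (Wee1), -0.077 to 0.16 (Usp2), -0.070 to 0.10 (Cdkn1a) and -0.19 to 0.17 (Rbm3). The cause was not tested. With circadian time as a block, which pairs the Ctrl and SCNx mice of each time, 0 genes were called for the difference between SCNx and Ctrl, and 542 had an unadjusted p under 0.05. This fit and that without SCNx CT32 and Ctrl CT4 were chosen after seeing the data. The labels give no replicate numbers, and the mice of a time are otherwise unrelated.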
